A study of Mus musculus with 6 samples.

Results

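The genes described here are 33 transcription factors that mark or build the mesoderm and neural lineages, 18 of mesoderm and 15 of neural tissue, of 19938 genes measured in mouse embryonic stem cells. A gene was taken where a probe set of the array (a group of probes read as 1 value) carried its symbol alone, and the brightest probe set stood for a gene that had several. Pou3f2 was the 1 member with more than 1 probe set. The study lowered p/CIP, the protein of Ncoa3, in cells of the E14 line, and asked which transcripts depend on it. The groups were cells transfected with p/CIP siRNA 1, cells transfected with p/CIP siRNA 2, and control cells given a pool of non-specific siRNAs, with 2 arrays each. All 3 groups share the E14 line, adherent culture and siRNA transfection, and the time after transfection was not used here. E14 is a feeder-independent line kept undifferentiated in culture, and p/CIP is a coactivator that nuclear receptors recruit to switch on transcription.

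Lineage transcription factors are the switches of gastrulation. In the mouse embryo, cells of the epiblast enter the primitive streak, turn on T-box and homeobox factors, lose epithelial contacts and become mesoderm, while the anterior epiblast turns on SOX and paired-box factors and becomes the neural plate. In embryonic stem cells such genes are known to be held at low levels, many behind promoters rich in CG dinucleotides that carry both activating and Polycomb-linked histone marks. Low readings from such genes sit close to the background of an array, so the background was part of the question.

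The promoters of the members are shown by 4 examples, since a high density of CG dinucleotides is a feature that the choice of members did not use. A RefSeq promoter table (build GRCm38.p6) held 30 promoters of 28 members, and Cdx1, Pax3, Foxc2, Mixl1 and Snai2 had no entry. The 250 bases before the start are given 5′ to 3′ on the strand of the gene, with every CG in capitals. Eomes (chr9:118477939-118478188, plus strand) and Twist1 (chr12:33957421-33957670, plus strand) are the members with the smallest p-values after knockdown, Msgn1 (chr12:11208949-11209198, minus strand) stands for the few poor in CG, and Sox1 (chr8:12395269-12395518, plus strand) for those rich in it. These examples were chosen with their values known.
Eomes: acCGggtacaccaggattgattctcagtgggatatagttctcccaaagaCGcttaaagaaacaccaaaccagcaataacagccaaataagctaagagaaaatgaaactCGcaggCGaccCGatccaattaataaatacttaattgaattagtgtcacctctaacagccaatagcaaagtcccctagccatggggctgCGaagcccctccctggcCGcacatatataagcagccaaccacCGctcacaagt
Twist1: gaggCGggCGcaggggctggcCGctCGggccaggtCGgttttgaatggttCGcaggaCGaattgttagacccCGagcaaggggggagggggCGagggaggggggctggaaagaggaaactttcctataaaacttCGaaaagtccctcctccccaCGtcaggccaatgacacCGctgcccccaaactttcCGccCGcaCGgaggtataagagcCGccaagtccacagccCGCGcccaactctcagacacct
Msgn1: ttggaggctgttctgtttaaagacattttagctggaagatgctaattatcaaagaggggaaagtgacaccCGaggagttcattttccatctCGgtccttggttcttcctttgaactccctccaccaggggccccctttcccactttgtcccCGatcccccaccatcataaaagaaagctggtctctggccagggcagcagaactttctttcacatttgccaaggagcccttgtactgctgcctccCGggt
Sox1: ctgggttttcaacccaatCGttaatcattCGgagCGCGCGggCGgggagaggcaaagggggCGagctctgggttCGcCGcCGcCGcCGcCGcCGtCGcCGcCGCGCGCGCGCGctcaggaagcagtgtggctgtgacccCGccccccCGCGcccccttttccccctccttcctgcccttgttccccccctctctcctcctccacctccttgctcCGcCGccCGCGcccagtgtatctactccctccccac

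These windows held 8 CG dinucleotides for Eomes, 18 for Twist1, 4 for Msgn1 and 29 for Sox1. Over the 30 member promoters the median was 20.5, against 6 over all 32851 promoters of the table, and the range was 2 to 33. The ratio of observed to expected CG, which corrects for base composition, exceeded 0.6 in 26 of the 30 member promoters (86.7%), against 34% of all promoters. All 16 promoters of neural members passed that ratio, and 10 of 14 of mesoderm members did. The exceptions were Mesp1, Tbx6, Msgn1 and Cdx4, which all act in nascent, presomitic or posterior mesoderm. A search on both strands for the letters AAGGTCA, which orphan nuclear receptors such as Esrrb can bind, found 0 of 30 member promoters with a match, against 4.08% of all promoters. No match says only that these letters are not in this window.

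**Figure D1:**
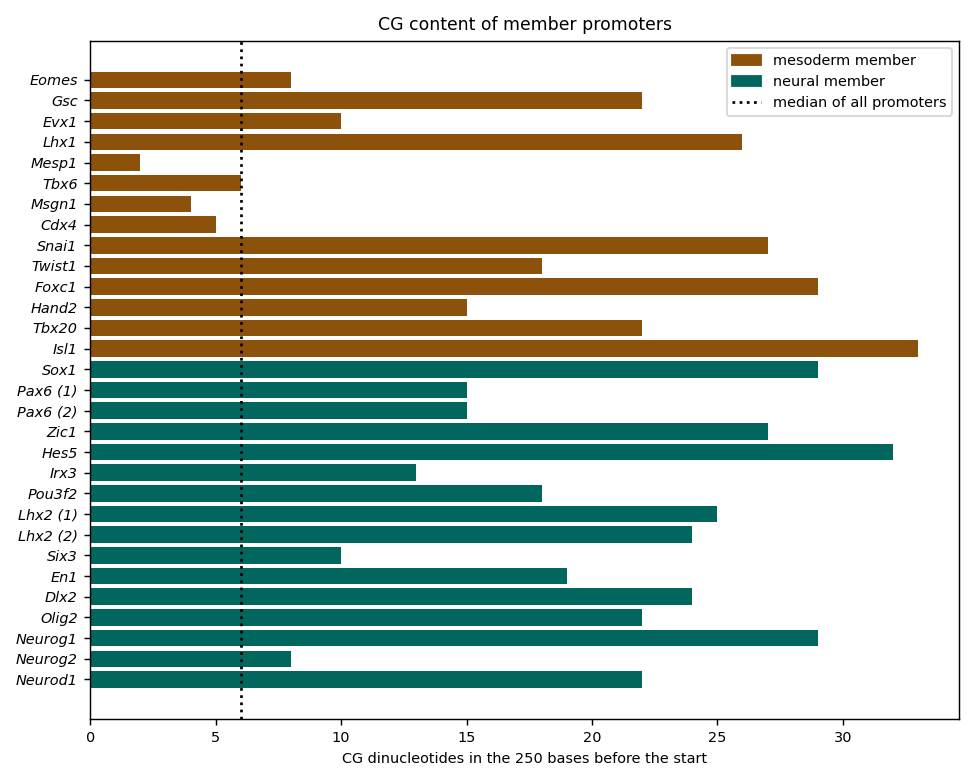
Number of CG dinucleotides (horizontal axis) in the 250 bases before the start for each of 30 promoters of 28 members, in brown for mesoderm and green for neural members, with a dotted line at the median of all promoters, 6. Mesp1, with 2, Msgn1, with 4, and Cdx4, with 5, lie below the line, and Isl1, with 33, and Hes5, with 32, are highest.

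The cells carried the marks of the labelled cell type and of the knockdown. On all 6 arrays Pou5f1 read between 12.68 and 12.91, Nanog between 12.55 and 13.05 and Sox2 between 12.20 and 12.54 on the deposited log2 scale, where the median gene of an array read 7.77 to 7.84. Nanog read 12.70 and 12.55 with p/CIP siRNA 1 and 12.71 and 12.60 with p/CIP siRNA 2, against 13.05 and 12.89 with control siRNA. Every knockdown array was thus lower than both control arrays, as for 10.1% of all genes. For Pou5f1 and Sox2 the groups overlapped. Ncoa3 read 10.71 and 10.93 with p/CIP siRNA 1 and 10.71 and 10.92 with p/CIP siRNA 2, against 12.33 and 12.28 with control siRNA. It fell by 1.49 on the log2 scale over both siRNAs (standard error 0.0964, adjusted p = 0.0287). Adjusted p-values here come from limma, a linear model fitted on all 6 arrays and all 19938 genes, with Benjamini-Hochberg adjustment over those genes and a threshold of 0.05. One array, p/CIP siRNA 1 replicate 2, stood apart: its interquartile range was 3.13, against 3.33 to 3.45 on the other arrays.

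As a stand-in for background, each member was set against 1190 olfactory and vomeronasal receptor genes, which belong to sensory neurons. The receptor level of an array was the 95th percentile of these genes and lay between 6.60 and 6.94. Of the 33 members, 24 read above it on all 6 arrays (72.7%), 4 on some arrays and 5 on none. One of the receptor genes, Olfr153, itself passed the test over both siRNAs, with a log2 change of -0.67 (adjusted p = 0.0388 in limma). The share among the 18748 genes that are not such receptors was 69.3%, and among the receptors themselves it was 3.7%. It was 13 of 18 for mesoderm and 11 of 15 for neural members. Probe sets differ in how brightly they read the same amount of RNA, so passing this level does not show that a gene was expressed, nor does missing it show that it was silent.

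**Figure D2:**
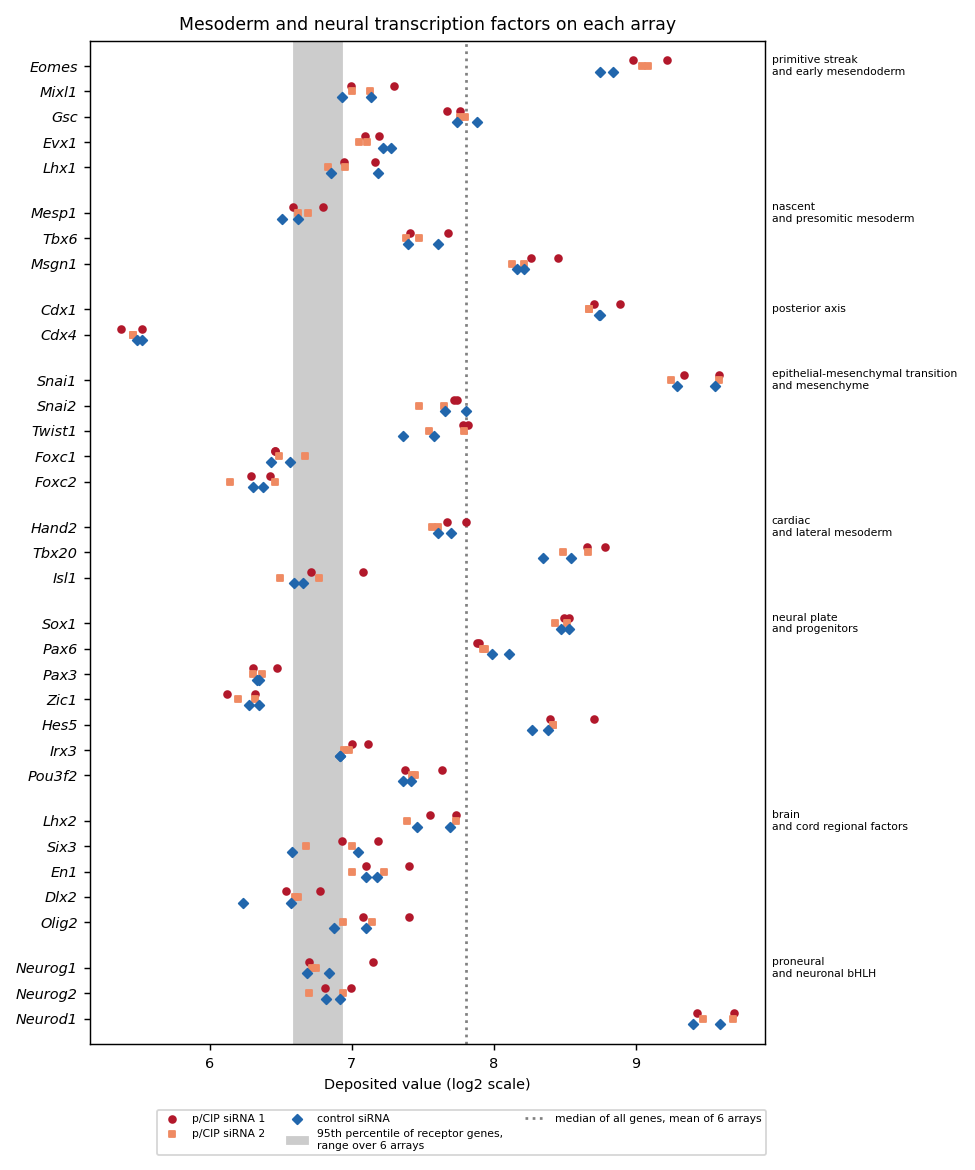
Deposited log2 value (horizontal axis) of each of the 33 members, grouped by role, on the arrays of p/CIP siRNA 1 (circles), p/CIP siRNA 2 (squares) and control siRNA (diamonds), 2 points per group. The grey band spans the receptor level over the 6 arrays, 6.60 to 6.94, and the dotted line is the mean of the arrays' medians over all genes. Cdx4 lies below the band in every group, and the knockdown points overlap the control points for all but 5 members.

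Factors of the primitive streak were all above the receptor level, and none passed the test for a change. Eomes, a T-box factor that mouse epiblast cells need to leave the streak, read 9.22 and 8.98 with p/CIP siRNA 1 and 9.09 and 9.05 with p/CIP siRNA 2, against 8.84 and 8.75 with control siRNA. Each of its 4 knockdown arrays thus lay above both control arrays. Evx1, a homeobox factor of the posterior streak, read 7.09 and 7.19 with p/CIP siRNA 1 and 7.05 and 7.11 with p/CIP siRNA 2, against 7.28 and 7.22 with control siRNA, and here every knockdown array was the lower. Mixl1, a homeobox factor of streak and endoderm, read 7.00 and 7.30 with p/CIP siRNA 1 and 7.01 and 7.13 with p/CIP siRNA 2, against 6.94 and 7.13 in control cells. Gsc, the homeobox factor of the organizer, read 7.76 and 7.67 with p/CIP siRNA 1 and 7.80 and 7.76 with p/CIP siRNA 2, against 7.88 and 7.74 in control cells. For both the groups overlapped. The LIM-homeobox factor Lhx1, needed for the head organizer in mice, read 6.94 and 7.16 with p/CIP siRNA 1 and 6.95 and 6.84 with p/CIP siRNA 2, against 6.85 and 7.18 in control cells, so its 2 control arrays spanned nearly all its knockdown values.

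Factors of presomitic and posterior mesoderm overlapped control when both siRNAs were combined. Msgn1, a basic helix-loop-helix (bHLH) factor of presomitic mesoderm, read 8.26 and 8.45 with p/CIP siRNA 1 and 8.13 and 8.21 with p/CIP siRNA 2, against 8.22 and 8.16 in control cells. Tbx6, the T-box factor that keeps paraxial mesoderm from becoming neural in mice, read 7.41 and 7.68 with p/CIP siRNA 1 and 7.39 and 7.47 with p/CIP siRNA 2, against 7.40 and 7.61 in control cells. Cdx1, a caudal homeobox factor that patterns the trunk, read 8.71 and 8.89 with p/CIP siRNA 1 and 8.67 and 8.67 with p/CIP siRNA 2, against 8.75 and 8.74 in control cells. The brightest array for all 3 was p/CIP siRNA 1 replicate 2, the array that stood apart. Mesp1, the bHLH factor of the first cardiac mesoderm, ranged from 6.51 to 6.80 over the 6 arrays and was above the receptor level on 2 of them. Cdx4, another caudal factor, ranged from 5.38 to 5.53 and was below that level everywhere.

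Among factors of the epithelial-mesenchymal transition and mesenchyme, Twist1 had the widest gap between group means. Twist1, a bHLH factor of mesenchyme, read 7.82 and 7.78 with p/CIP siRNA 1 and 7.55 and 7.79 with p/CIP siRNA 2, against 7.36 and 7.58 with control siRNA. Both p/CIP siRNA 1 arrays were above both control arrays, while p/CIP siRNA 2 overlapped control. Snai1, the zinc-finger repressor of E-cadherin, read 9.34 and 9.59 with p/CIP siRNA 1 and 9.25 and 9.58 with p/CIP siRNA 2, against 9.29 and 9.56 in control cells. Snai2, its relative in neural crest, read 7.74 and 7.72 with p/CIP siRNA 1 and 7.48 and 7.65 with p/CIP siRNA 2, against 7.80 and 7.66 in control cells. Snai1 was higher on replicate 2 than on replicate 1 in every group, by more than the groups differed. The forkhead factors Foxc1 and Foxc2, which act in somites and vessels, ranged from 6.43 to 6.67 and from 6.14 to 6.46 and were below the receptor level on all 6 arrays.

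Tbx20 and Hand2, factors of the heart, were above the receptor level on every array. Tbx20, a T-box factor of the developing heart, read 8.78 and 8.65 with p/CIP siRNA 1 and 8.49 and 8.66 with p/CIP siRNA 2, against 8.54 and 8.35 with control siRNA. Hand2, a bHLH factor of heart and limb, read 7.67 and 7.81 with p/CIP siRNA 1 and 7.57 and 7.61 with p/CIP siRNA 2, against 7.70 and 7.61 in control cells. For Tbx20 the p/CIP siRNA 1 arrays did not overlap control, and the p/CIP siRNA 2 arrays did. Isl1, a LIM-homeobox factor of the heart field and motor neurons, ranged from 6.50 to 7.08 and was above the receptor level on 3 arrays.

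The neural plate factors held the member of smallest spread. Sox1, the earliest of the SOX factors confined to neural tissue in mice, read 8.49 and 8.53 with p/CIP siRNA 1 and 8.52 and 8.43 with p/CIP siRNA 2, against 8.53 and 8.47 with control siRNA. Its SD within groups was 0.0451, the lowest of the 33, and its change over both siRNAs was -0.01 with a 95% interval of -0.17 to 0.15. Pax6, the paired-box factor of forebrain and eye, read 7.90 and 7.88 with p/CIP siRNA 1 and 7.94 and 7.93 with p/CIP siRNA 2, against 7.99 and 8.11 with control siRNA, so every knockdown array was lower than both control arrays. Hes5, a bHLH repressor that Notch signalling induces, read 8.40 and 8.71 with p/CIP siRNA 1 and 8.42 and 8.42 with p/CIP siRNA 2, against 8.27 and 8.38 with control siRNA. All 4 knockdown arrays were higher for Hes5, with the lowest of them close to the higher control array.

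Irx3, a homeobox factor that patterns the neural tube, read 7.00 and 7.12 with p/CIP siRNA 1 and 6.98 and 6.95 with p/CIP siRNA 2, against 6.92 and 6.92 with control siRNA, and its groups did not overlap. Pou3f2, a POU factor of neural progenitors, read 7.37 and 7.64 with p/CIP siRNA 1 and 7.43 and 7.45 with p/CIP siRNA 2, against 7.36 and 7.42 in control cells. Its dimmer probe set ranged from 3.43 to 3.72 and differed from the brighter one in sign, with a change of -0.12 against 0.08. Pax3 and Zic1, factors of the dorsal neural tube, ranged from 6.31 to 6.47 and from 6.12 to 6.35, below the receptor level on all 6 arrays.

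Regional factors of brain and cord all overlapped control when both siRNAs were combined. Lhx2, a LIM-homeobox factor of cortex and eye, read 7.55 and 7.73 with p/CIP siRNA 1 and 7.39 and 7.73 with p/CIP siRNA 2, against 7.69 and 7.46 in control cells. En1, the homeobox factor of the midbrain-hindbrain border, read 7.10 and 7.41 with p/CIP siRNA 1 and 7.01 and 7.23 with p/CIP siRNA 2, against 7.18 and 7.10 in control cells. Olig2, the bHLH factor of motor neuron and oligodendrocyte progenitors, read 7.08 and 7.41 with p/CIP siRNA 1 and 6.94 and 7.15 with p/CIP siRNA 2, against 6.88 and 7.10 in control cells. En1 and Olig2 were brightest on p/CIP siRNA 1 replicate 2. Dlx2, a homeobox factor of the ventral forebrain, read 6.54 and 6.78 with p/CIP siRNA 1 and 6.62 and 6.60 with p/CIP siRNA 2, against 6.24 and 6.57 in control cells, and was above the receptor level on 1 array only. Six3, a homeobox factor of the anterior forebrain, ranged from 6.58 to 7.19, passed the level on 5 arrays and had the largest SD within groups of the 33, 0.255.

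The 3 proneural and neuronal bHLH factors all passed the receptor level on every array. Neurod1, which drives neuronal and endocrine differentiation, read 9.69 and 9.43 with p/CIP siRNA 1 and 9.48 and 9.69 with p/CIP siRNA 2, against 9.41 and 9.59 with control siRNA. Neurog1, which commits cells to sensory neuron fates, read 6.70 and 7.15 with p/CIP siRNA 1 and 6.75 and 6.72 with p/CIP siRNA 2, against 6.84 and 6.68 in control cells. Neurog2, its relative in cortex and cord, read 6.81 and 7.00 with p/CIP siRNA 1 and 6.70 and 6.94 with p/CIP siRNA 2, against 6.92 and 6.82 in control cells. The groups overlapped for all 3. Neurog1 and Neurog2 sat at the edge of background: on the array of smallest margin they exceeded the receptor level by only 0.0016 and 0.062.

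None of the 33 members passed the test after knockdown. Over both siRNAs 0 members were called, where 14 genes of 19938 were, a background of 0.0702%, all of them lower. For p/CIP siRNA 1 alone it was 0 members, against 0.0702% of genes. For p/CIP siRNA 2 alone it was 0 members and 0% of genes, and likewise between the siRNAs, 0 members and 0% of genes. Ncoa3 itself was not called for p/CIP siRNA 2 (log2 change -1.49, adjusted p = 0.0742 in limma). The absence of calls for that siRNA thus says little about the members. In the other comparisons too, so few genes were called that 0 of 33 members is near the share of all genes. The smallest adjusted p of a member in limma was 0.401 over both siRNAs, 0.34 for p/CIP siRNA 1, 0.841 for p/CIP siRNA 2 and 0.738 between the siRNAs. With replicate number as a block the background was 0.341% over both siRNAs, 1.21% for p/CIP siRNA 1, 0.13% for p/CIP siRNA 2 and 0.0752% between the siRNAs, still with 0 members. The count of 14 genes rests on single arrays: it was 37 without p/CIP siRNA 1 replicate 1 and 23 without p/CIP siRNA 1 replicate 2, and it dropped to 0 when a p/CIP siRNA 2 or a control array was left out, which ends the calls of Ncoa3 and Tbx3 too. The count of 14 for p/CIP siRNA 1 became 437 and 2 without its replicates 1 and 2, and 0 when a p/CIP siRNA 2 or a control array was left out.

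At an unadjusted p under 0.05, 2 members passed over both siRNAs, 6.06% of the 33, against 8.72% of all genes. These were Eomes and Twist1, both higher, where 3.86% of all genes were higher at that p. Eomes was 1.22-fold higher (log2 change 0.29, standard error 0.088, 95% interval 0.08 to 0.50, unadjusted p = 0.0135, adjusted p = 0.401 in limma), in 4 of 4 knockdown arrays. With the replicate block its adjusted p was 0.124. Twist1 was 1.20-fold higher (log2 change 0.26, standard error 0.101, 95% interval 0.03 to 0.50, unadjusted p = 0.0349, adjusted p = 0.534 in limma). Next by p were Tbx20, with a log2 change of 0.20 (adjusted p = 0.604 in limma), Dlx2, with 0.23 (0.62), Evx1, with -0.14 (0.633), and Pax6, with -0.14 (0.633). For p/CIP siRNA 1 the unadjusted count was 3 members (Eomes, Twist1 and Tbx20; 9.09%), against 12.1% of genes. All 3 were higher, where 5.78% of genes were. For p/CIP siRNA 2 it was 1, Eomes, against 5.25% of genes, and between the siRNAs it was 0, against 6.9% of genes. With the replicate block the members higher at that p were 4 over both siRNAs (Eomes, Twist1, Dlx2 and Olig2; 12.1%), against 8.52% of genes. There were 8 for p/CIP siRNA 1 (those 4 with Tbx20, Isl1, Hes5 and Six3), 24.2% against 12.9% of genes. That siRNA holds the array that stood apart, and 74.3% of the receptor genes also lay above control with it. For p/CIP siRNA 2 there was 1, Eomes, 3.03% against 4.54% of genes. With the same block, 0 members were lower at that p over both siRNAs, against 8.95% of genes. For p/CIP siRNA 1 it was 0 members lower, against 11.3% of genes, and for p/CIP siRNA 2 it was 0, against 5.59%.

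Separation of the arrays was counted next. Over both siRNAs the 4 knockdown arrays did not overlap the 2 control arrays for 5 of 33 members (15.2%), against 18.9% of all genes. Eomes, Hes5 and Irx3 were the higher ones, and Evx1 and Pax6 the lower ones. For p/CIP siRNA 1 it was 9 members (27.3%), against 43.4% of genes. It was 12 for p/CIP siRNA 2 (36.4%), against 35.8% of genes, and between the siRNAs it was 7 (21.2%), against 35.1% of genes. The members' shares were thus near or under those of all genes in each comparison.

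Intervals of the change are given for the 24 members above the receptor level on all arrays, since a reading at background bounds no change of a transcript. In every comparison the 95% interval of each of these 24 lay within 1 log2 unit of no change. It lay within 0.5 log2 units for 23 of them over both siRNAs, 18 for p/CIP siRNA 1 and 23 for p/CIP siRNA 2. The outermost bounds over both siRNAs were -0.32 and 0.50. These intervals are not adjusted for the number of members, and readings near the receptor level may understate a change.

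**Figure D3:**
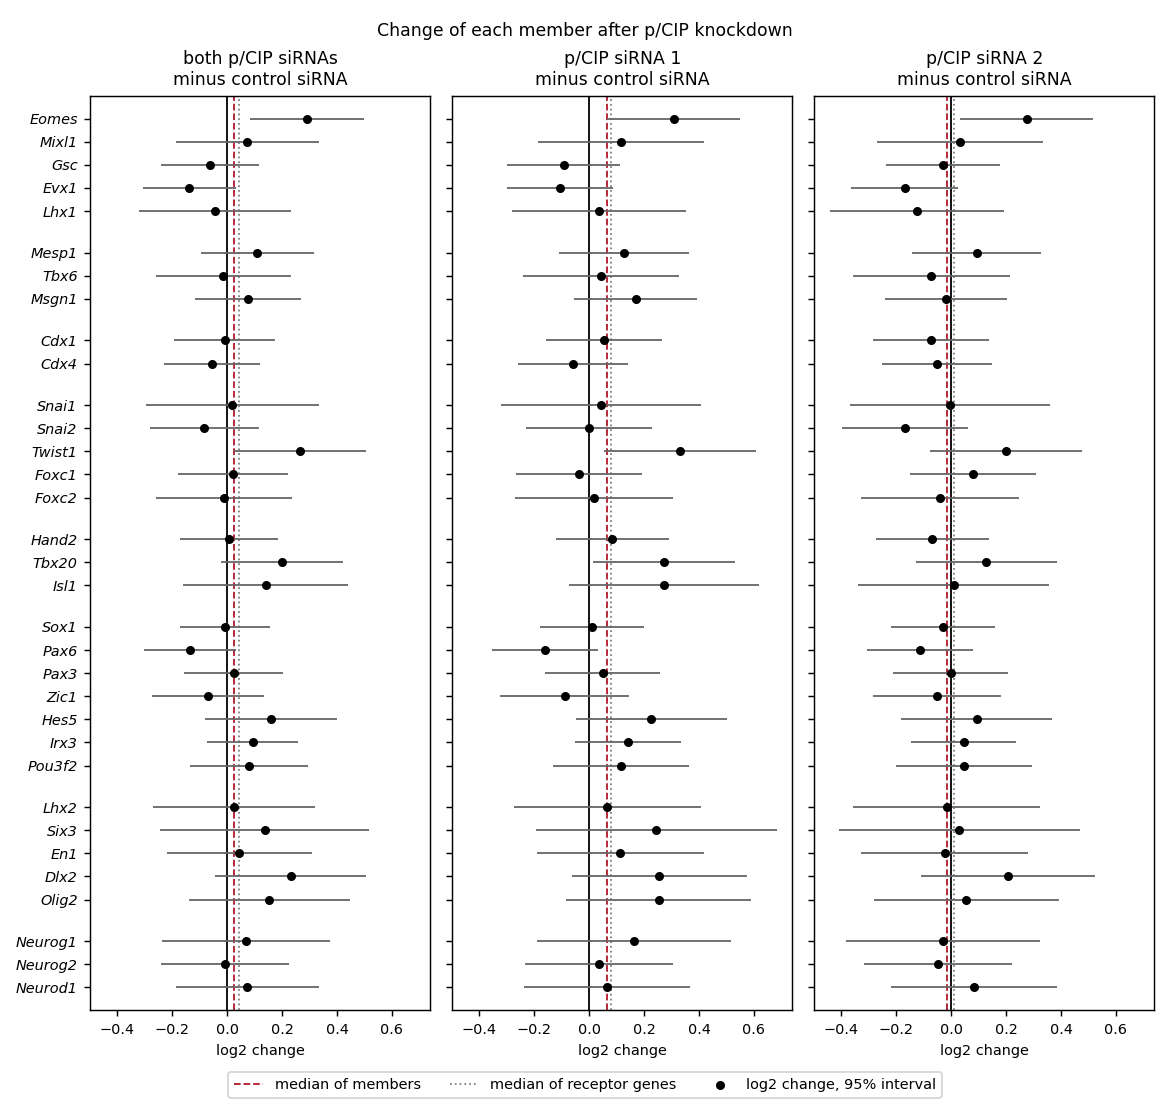
Log2 change (horizontal axis; points, with 95% intervals from limma) of each of the 33 members for both p/CIP siRNAs, p/CIP siRNA 1 and p/CIP siRNA 2, each minus control siRNA, in the order of roles used for the levels. The dashed line is the median of the members and the dotted line that of the receptor genes. The largest change over both siRNAs is that of Eomes, 0.29, and 0 of the 33 passed the test in any panel.

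As a group the members lay slightly above control with p/CIP siRNA 1 and not with p/CIP siRNA 2. Their median log2 change was 0.07 for p/CIP siRNA 1, where 26 of 33 were above control, against 0.02 and 55.5% over all genes. It was -0.02 for p/CIP siRNA 2, where 14 of 33 were above control, against -0.01 and 47.2% over all genes. Over both siRNAs it was 0.03, with 21 of 33 above control (63.6%), against 0.01 and 52.3%. The receptor genes, read as background, had medians of 0.08 for p/CIP siRNA 1 (74.3% above control), 0.01 for p/CIP siRNA 2 (54.9%) and 0.04 over both (69.2%). Both siRNAs are set against the same 2 control arrays. By role, the highest medians over both siRNAs were those of the 3 factors of cardiac and lateral mesoderm (0.14) and the 5 regional factors of brain and cord (0.14), and the lowest was that of the 5 streak factors (-0.04). The cardiac and regional medians over both siRNAs were the values of Isl1 and Six3. These genes passed the receptor level on only 3 and 5 of the 6 arrays. For the cardiac factors the median was 0.27 with p/CIP siRNA 1 and 0.01 with p/CIP siRNA 2, and for the regional factors it was 0.24 with p/CIP siRNA 1 and 0.03 with p/CIP siRNA 2.

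The readings of the members were highest on p/CIP siRNA 1 replicate 2. On that array the members lay a median of 0.14 above their own means over the 6 arrays, the receptor genes 0.14 and all genes 0.04. Of the 33 members, 18 had their highest reading there, against 37.9% of all genes. On p/CIP siRNA 2 replicate 1 the members lay at -0.07, and 11 had their lowest reading there, against 20.7% of all genes. Without p/CIP siRNA 1 replicate 2 the members' median for that siRNA was -0.01, against -0.01 for all genes. Without its replicate 1 the members' median was 0.16, against 0.04 for all genes. With the arrays aligned on the medians of the receptor genes, a step chosen after seeing the data, the medians were -0.02 for p/CIP siRNA 1 and -0.04 for p/CIP siRNA 2, and 15 of 33 members were above control over both siRNAs, against 34.8% of all genes.

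**Figure D4:**
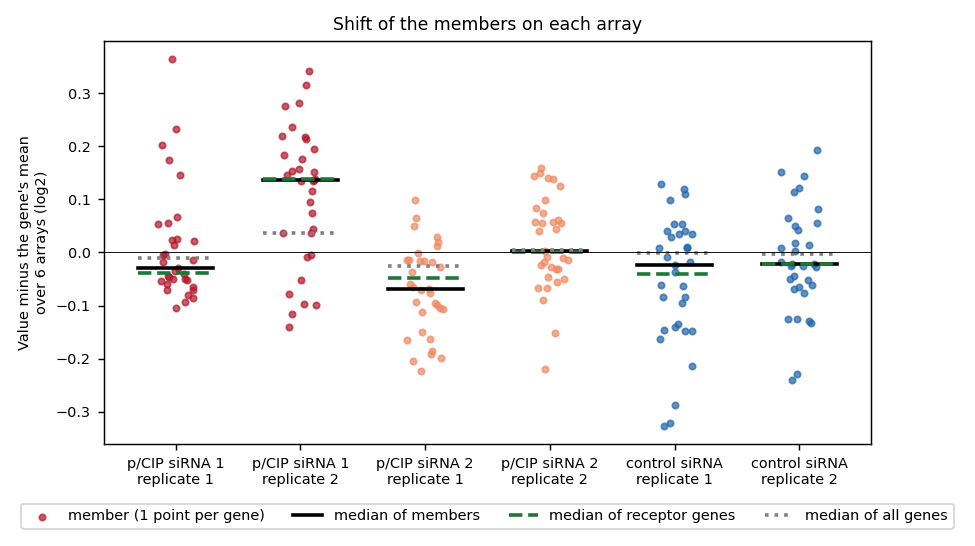
Value of each of the 33 members minus its own mean over the 6 arrays (vertical axis, log2; 1 point per gene, with small random sideways offsets), array by array. Solid, dashed and dotted bars are the medians of the members, the receptor genes and all genes. The members and the receptor genes sit together at 0.14 on p/CIP siRNA 1 replicate 2, apart from all genes at 0.04.

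Other genes of the same lineages gave no call over both siRNAs either. Of 38 further genes of streak and mesoderm 36 were measured and 0 passed, with a median log2 change of 0.07. Bmp4, the ligand that induces posterior mesoderm, had the smallest p and read 12.24 and 12.22 with p/CIP siRNA 1 and 12.11 and 12.22 with p/CIP siRNA 2, against 12.57 and 12.53 with control siRNA (log2 change -0.35, adjusted p = 0.199 in limma), and Myf5, a muscle factor, came next (0.24, adjusted p = 0.492). Of 42 further neural genes 38 were measured and 0 passed, with a median of -0.01. Ncam1, a neural adhesion molecule, had a log2 change of -0.39 (adjusted p = 0.246 in limma), and Zic5, a zinc-finger factor, -0.31 (adjusted p = 0.257). Zic5 passed with the replicate block for p/CIP siRNA 1, at an adjusted p of 0.0476 in limma.

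Genes that hold stem cells back from these lineages gave 1 call over both siRNAs. Of 14 pluripotency and lineage-brake genes 12 were below control over both siRNAs, with a median log2 change of -0.19, and 1 passed. Over all genes the median was 0.01, 52.3% were above control and 0.0702% passed. Tbx3, a T-box factor of the naive state, read 9.78 and 9.94 with p/CIP siRNA 1 and 9.75 and 9.78 with p/CIP siRNA 2, against 10.84 and 10.61 with control siRNA, and fell by 0.91 on the log2 scale (standard error 0.0926, adjusted p = 0.0388 in limma). For either siRNA alone Tbx3 did not pass (adjusted p = 0.0688 for p/CIP siRNA 1 and 0.0915 for p/CIP siRNA 2 in limma). With the replicate block 3 of the 14 passed over both siRNAs, against 0.341% of all genes. Klf4 was among the 3 (log2 change -0.78, adjusted p = 0.018 with the block and 0.134 without it in limma). The list was chosen with earlier results of these data known, so its counts are a description and no test. The difference between the genes of this list and the members was not tested.

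Markers of other cells that a stem cell culture can hold gave 0 calls over both siRNAs. As background to the counts below, 52.3% of all genes and 69.2% of the receptor genes lay above control over both siRNAs. For trophoblast, 10 of 12 markers were measured and 9 lay above control, led by Plet1 (log2 change 0.41, adjusted p = 0.277 in limma) and Ascl2 (0.30, adjusted p = 0.511), and their linear values summed to 10362 to 13162 with p/CIP siRNA 1 and 10196 to 13056 with p/CIP siRNA 2, against 9670 to 11097 with control siRNA. For extraembryonic endoderm, 13 of 14 lay above control with a median of 0.15, led by Lamb1 (0.40, adjusted p = 0.592 in limma) and Lrp2 (0.50, adjusted p = 0.647), and the sums were 12334 to 17339 and 12447 to 15739, against 11211 to 14115. Fibroblast markers summed to 9630 to 11776 with p/CIP siRNA 1 and 13203 to 15379 with p/CIP siRNA 2, against 13259 to 14186. Above the receptor level on all arrays were 8 of 14 fibroblast, 8 of 10 trophoblast and 12 of 14 extraembryonic endoderm markers. The share of genes that are not receptors was 69.3%. Thy1 (0.35, adjusted p = 0.438 in limma) and Vim (-0.14, adjusted p = 0.643) had the smallest p of the fibroblast markers. With the replicate block, 3 of these markers passed for 1 siRNA each in limma: Lamb1 was higher with p/CIP siRNA 1 (0.47, adjusted p = 0.0439), Lrp2 was higher with p/CIP siRNA 2 (0.72, adjusted p = 0.0484) and Acta2, a smooth muscle actin, was lower with p/CIP siRNA 1 (-1.22, adjusted p = 0.0324). The part of these cells in the readings of the members was not tested, and in RNA from whole cultures a few differentiated cells and a low level in every cell cannot be told apart.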

How the data were processed

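The values are the log2 expression values deposited by the authors, 1 for each of 35556 probe sets on each of 6 arrays. The base is an inference from the lowest and highest values, 2.69 and 14.6. Partek is named per the submitters' processing notes. Its version is not given in the sources used here, nor are background correction, summarization and normalization. No detection calls were used, and the number of arrays limits the precision. Gene symbols came from GEO's platform annotation (1 symbol for 21789 probe sets, several for 1621, none for 12146), and the brightest probe set stood for each of the 19938 genes. Members and lists were chosen with earlier results of these data known. The lists overlap: Sox2 is on the neural and pluripotency lists, and Gata4 on the mesoderm and extraembryonic endoderm lists. Cdx2 and Hand1 are on the mesoderm and trophoblast lists.

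One limma model (version 3.58.1, R 4.3.3; lmFit and eBayes, 3 residual and 3.84 prior degrees of freedom) covered the 3 groups and all genes without a filter, two-sided, with Benjamini-Hochberg adjustment over all genes. The code was tested on simulated data. Whether replicates are separate cultures is not in the labels, and p-values here reflect only the spread between arrays, which may be technical. Deviations of arrays with the same replicate number correlated at 0.464 (p/CIP siRNA 1 and control) and 0.407 (p/CIP siRNA 2 and control). Between the siRNAs the correlation was 0.461. With 2 arrays a group this check is weak, and a pairing is read from the data, not the labels. The main model held no replicate term. Replicate numbers were treated as pairs only where the replicate block is named, as an alternative to it. Values on all arrays are given for members called, above the receptor level on all arrays or among the 6 of smallest p over both siRNAs. From each list, the genes called or otherwise the 2 of smallest p are named, and Klf4, Acta2 and Olfr153 were added after their values were seen. CG dinucleotides were counted in RefSeq promoters, whose start positions may not be those used in these cells.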

Additional observations from a re-analysis of the deposited data

How the results depend on the processing

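The absence of calls among the 33 members held under every alternative that keeps all arrays. Among these were the replicate block, quantile normalization, a filter on low values, other probe set rules and the other settings of limma. Alignment on the receptor genes, chosen after seeing the data, was another. The same held with each array left out in turn, but there a group keeps 1 array. Leaving out a p/CIP siRNA 2 or a control array also ended the call of Ncoa3, so those fits cannot decide. With the replicate block 0 members were called in any comparison, and the lowest adjusted p over both siRNAs was 0.124, for Eomes, in limma. With receptor alignment 71 genes were called over both siRNAs, 132 for p/CIP siRNA 1 and 25 for p/CIP siRNA 2. There, as in the main fit, few of the 19938 genes were called, so 0 of 33 members says little. The members above background depend on where it is set: 24 at the 95th percentile of the receptors, 11 at the 99th percentile and 9 at the median of all genes. The 11 were 33.3% of the members, against 53.9% of the genes that are not receptors. The 9 were 27.3%, against 50.4%. Those 9 were Eomes, Msgn1, Cdx1, Snai1, Tbx20, Sox1, Pax6, Hes5 and Neurod1. Of 290 changes of single members under alternatives that keep all arrays, 286 moved by less than the spread within groups. Many of the 290 could not move: the replicate block, the filter and the other settings of limma leave the change as it was. The other probe set rules can alter only Pou3f2, so the count of 286 is no measure of stability. The 4 that moved by more than this spread, all under receptor alignment, were Evx1 (-0.19), Pax6 (-0.19), Sox1 (-0.06) and Irx3 (0.04). Leaving out 1 array moved Pax6 by more than that spread, to -0.20 without control siRNA replicate 1 and -0.08 without control siRNA replicate 2. The change of Eomes ran from 0.23 to 0.35 with 1 array left out, and its unadjusted p in limma reached 0.0993 without control siRNA replicate 2. The sign of these small changes was less stable: it turned 17 times, in 9 members, under the alternatives that keep all arrays and 36 times, in 17 members, with 1 array left out, and 15 of the 33 kept their sign throughout. The counts of members above control rest on these signs. The filter on low values kept 26 of the 33 members.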

Other observations

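Readings were also compared between replicate numbers within each group. Mixl1, Tbx6, Snai1, Hes5, Pou3f2, Six3 and Olig2, 7 of the 33 (21.2%), read higher on replicate 2 than on replicate 1 in each of the 3 groups, as did 28.5% of all genes. Eomes, Gsc, Cdx4 and Isl1, 4 of the 33 (12.1%), read lower on replicate 2 in each group, as did 21.4% of all genes, so neither share was above that of all genes. The median difference between replicates 2 and 1 over the members was 0.17 with p/CIP siRNA 1 and 0.07 with p/CIP siRNA 2, against -0.01 with control siRNA. For the receptor genes these medians were 0.17 with p/CIP siRNA 1 and 0.05 with p/CIP siRNA 2, against 0.02 with control siRNA. What the replicate numbers share was not tested.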
